A study of Oncorhynchus kisutch with 82 samples.

Results

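Body condition says how heavy a fish is for its length. Here it was used to divide coho salmon (Oncorhynchus kisutch) caught at sea in summer and fall into fish of high and of low condition, and their gill transcription was compared. Condition was computed as 100 times total mass in g over fork length in cm cubed. Fish above the median of their own season and year formed the high class, and fish at or below it the low class. Of the 82 fish of the series, 49 were ocean summer or fall fish, and 45 of these had a recorded mass. The high class held 21 fish and the low class 24.

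The study followed gill RNA of juvenile coho from river smolts to postsmolts at sea in 2008 and 2009. Each array held RNA of a single fish, labelled with an Alexa dye, beside a pool of gill RNA of all samples, labelled with another Alexa dye. The fish compared were caught at sea and of both origins, Hatchery and Wild, and their age is not given in the labels. Their labelled stock was Fraser for 16 high and 20 low fish, Chilliwack_R for 4 and 2, S_Main for 0 and 2, and not given for 1 high fish. All 6 Chilliwack_R fish were caught in fall 2008, where they made up 4 of 7 high and 2 of 8 low fish. In summer 2008 there were 3 high and 4 low fish, in fall 2008 7 and 8, in summer 2009 7 and 7, and in fall 2009 4 and 5. Each fish is a separate sample, and the p-values measure the spread between single fish.

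The ratio of mass to length cubed is a common field measure of fatness and recent feeding in salmonids. Gill is the organ of gas exchange, and in seawater its ionocytes, rich in sodium pumps, secrete salt, which costs energy. Gill also carries immune cells and responds to hormones of growth and stress, so nutritional state could be reflected in its RNA. Gene names are not paired with the probes in the files. Probes are therefore given by their array IDs, no pathway or marker list could be read, and the tissue label was not checked against marker genes. No sequence is printed, since none of the probes was at hand. The deposited values are log ratios whose base and direction are not stated. They were taken as log2, and "higher" or "lower" below refers to the deposited log ratio, not to the amount of RNA.

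Condition was 1.30 ± 0.0488 (SD, n = 21) in high fish and 1.15 ± 0.0758 (SD, n = 24) in low fish, a difference that the rule made. Over all 45 fish it ran from 0.945 to 1.38. The fish nearest the medians lay close together. In summer 2009 fish 2675, at 1.229, was low and fish 2786, at 1.232, was high. In fall 2009 fish 3320 sat on the median at 1.245, and the next fish above it, 3020, had 1.263. In fall 2008 fish 663 at 1.243 was followed by fish 796 at 1.270, and in summer 2008 fish 572 at 1.161 by fish 503 at 1.227.

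**Figure D1:**
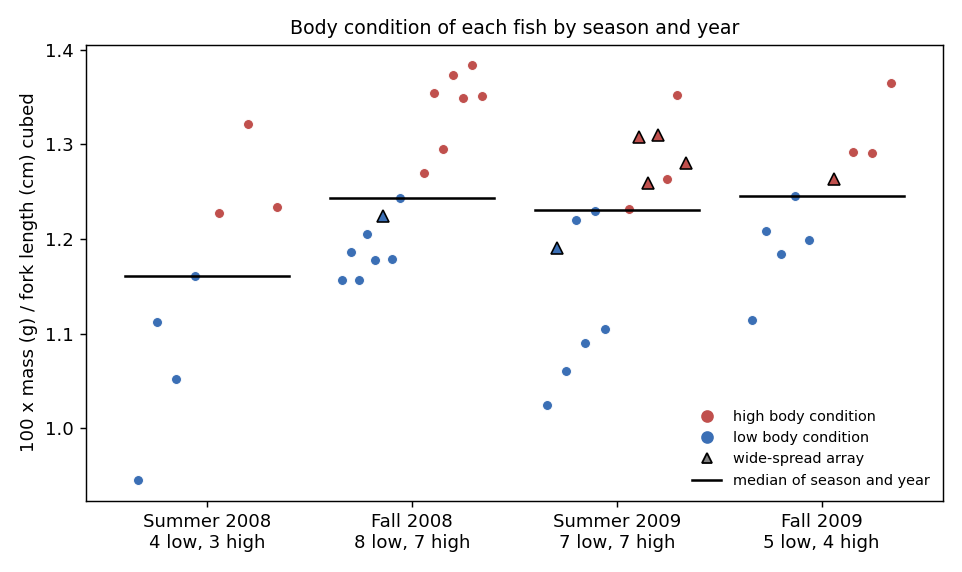
Body condition (100 times mass in g over fork length in cm cubed, vertical axis) of each of the 45 fish in the 4 combinations of season and year; red points are high fish, blue points low fish, triangles fish with a wide-spread array and black lines the medians. The lowest fish, at 0.945, was caught in summer 2008, and in summer 2009 a low and a high fish at 1.229 and 1.232 lie on either side of the median.

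The classes overlapped in size. Fork length averaged 21.3 ± 3.69 cm (SD, n = 21) in high and 22.04 ± 5.27 cm (SD, n = 24) in low fish (permutation within season and year, two-sided p = 0.371). Mass averaged 138 ± 70.2 g (SD, n = 21) and 147 ± 97.7 g (SD, n = 24) (permutation p = 0.672). Hatchery fish made up 7 of the 21 high and 13 of the 24 low fish (Fisher's exact test, two-sided p = 0.231). There were 11 females and 9 males in the high class and 11 females and 12 males in the low class, with 1 fish of sex U in each (Fisher's exact test on the females and males, p = 0.763). Array position on the slide gave p = 0.615 in Fisher's exact test. Adjusted over these 5 measures every p was 0.763. Within single seasons and years the balance was poorer, and in summer 2008 all 3 high fish were wild females. Females were 5 of 7 high and 3 of 7 low fish in summer 2009, but 2 of 7 and 7 of 8 in fall 2008. Hatchery fish were 2 of 7 high and 5 of 7 low fish in summer 2009 and 1 of 4 and 4 of 5 in fall 2009. In fall 2008 the order of origin was reversed, with 4 of 7 and 2 of 8. Mean fork length was lower in high than in low fish in fall 2008 (24.9 and 26.8 cm) and fall 2009 (23.3 and 25.4 cm). It was higher in high fish in summer 2008 (17.5 and 15.9 cm) and summer 2009 (18.3 and 17.7 cm). Capture area was uneven as well. In summer 2009 mid_SoG held 5 high and 2 low fish, north_SoG 1 and 4, and south_SoG 1 and 1. In fall 2009 mid_SoG held 2 and 0, and south_SoG 2 and 5. Both classes were near balance in mid_SoG in fall 2008, with 5 and 6, but in summer 2008 it held 0 and 2.

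Of the 45 arrays, 7 had an unusually wide spread of log ratios, and they were unequally shared. An array was counted as wide-spread when its SD exceeded the median SD of all 82 arrays by over 3 scaled median absolute deviations, a limit of 1.30. There were 5 such arrays among the high fish, namely 2800, 2856, 2857 and 2921 of summer 2009 and 3020 of fall 2009. The low fish had 2, fish 2794 of summer 2009 and fish 1012 of fall 2008. In summer 2009 the capture area mid_SoG held 5 of them among its 7 fish, north_SoG 0 of 5 and south_SoG 0 of 2. The array SD averaged 1.08 ± 0.4002 (SD, n = 21) in high and 0.895 ± 0.196 (SD, n = 24) in low fish. The permutation p within season and year was 0.0525, or 0.157 adjusted over the 3 array measures. With the wide-spread arrays left out the averages were 0.876 (n = 16) and 0.851 (n = 22), with a permutation p of 0.642.

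**Figure D2:**
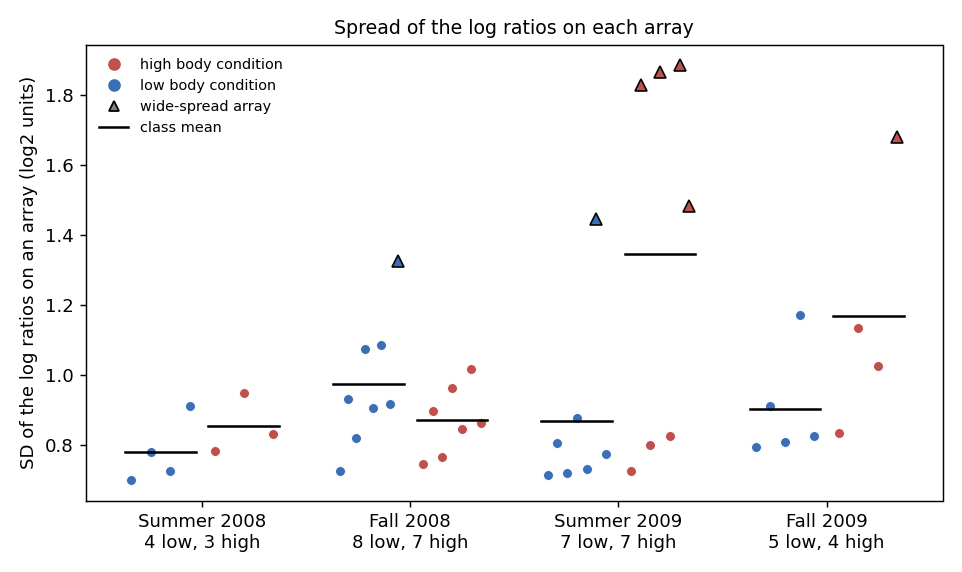
SD of the log ratios on each array (log2 units, vertical axis) by season, year and class; triangles are the 7 wide-spread arrays, above 1.30, and black lines class means. High fish have 4 of the wide-spread arrays in summer 2009 and 1 in fall 2009, against 1 low fish of summer 2009 and 1 of fall 2008.

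The number of probes with a value was 24521 ± 3070 (SD, n = 21) on the arrays of high fish and 23517 ± 4580 (SD, n = 24) on those of low fish (permutation p = 0.344, adjusted p = 0.344). The first principal component, which held 61.5% of the variance over 10113 probes with a value in all 45 fish, followed the array SD (r = 0.910 across the 45 arrays, a description). Its mean score was 30.9 higher in high fish (permutation p = 0.124, adjusted p = 0.187). Without the wide-spread arrays the sign turned, with a difference of -3.18 (permutation p = 0.935). The DarkCorner control spots also moved with these arrays. They averaged 1.66 ± 0.845 (SD, n = 5) on the wide-spread arrays of high fish and 0.802 ± 0.288 (SD, n = 2) on those of low fish. On the other arrays they averaged -0.367 ± 0.694 (SD, n = 16) and -0.382 ± 0.560 (SD, n = 22). The GE_BrightCorner spots differed less, at -0.553 ± 0.640 (SD, n = 5) and -0.476 ± 0.144 (SD, n = 2) on the wide-spread arrays and -0.405 ± 0.297 (SD, n = 16) and -0.415 ± 0.210 (SD, n = 22) on the others.

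No probe was called between fish of high and low condition with season and year as covariates. In limma, 0 of 23408 probes (0%) had an adjusted p below 0.05, and the lowest adjusted p was 0.515. At an unadjusted p below 0.05 there were 2127 probes (9.09%), of which 1139 had a higher and 988 a lower log ratio in high fish. Evenly spread p-values would put a share of 0.05 of the probes there, and several of the fits below fell under that share. Differences were small. The median size was 0.182 on the log2 scale beside a median SE of 0.190, and 112 probes differed by at least 1. Leaving out a single fish of high condition lowered the share of 9.09% to 4.85% (fish 2921), 4.91% (2856), 4.98% (2800) or 5.14% (3020), all 4 on wide-spread arrays. It was 14.9% without low fish 1012, 14.1% without high fish 2658 and 14.05% without high fish 2786. When slides were blocked, so that fish were compared on the same slide, 12.9% of probes had an unadjusted p below 0.05 and 0 were called. A separate fit with slide as a random block had a consensus correlation within slides of -0.0535, and 0 probes were called. Only 30 of the 45 fish lay on slides that held both classes. A lack of calls does not show that the classes were alike.

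The 2 probes with the smallest p on the higher side were C158R031 and C078R046, both with a value in all 45 fish and neither called. C158R031 ran from 0.10 over a median of 0.74 to 1.68 in high fish, and from -0.15 over 0.49 to 1.09 in low fish. The classes overlapped, and 16 of 21 high fish lay above the median of the low fish. The fitted difference was 0.38 ± 0.11 (SE), with a 95% interval from 0.16 to 0.60 and an adjusted p of 0.515 in limma. It was positive in each of the 4 combinations of season and year, from 0.18 in fall 2008 to 0.60 in fall 2009. The unadjusted p in limma ran from 0.0560 in fall 2009 to 0.328 in fall 2008. C158R031 was chosen by its p over the same fish, so the shared sign is no independent check. C078R046 ran from 0.32 over 0.76 to 2.25 in high fish and from 0.13 over 0.51 to 0.95 in low fish, with 19 of 21 high fish above the low median. Its difference was 0.40 ± 0.12 (SE; 95% interval 0.17 to 0.64; adjusted p = 0.515 in limma). The 3 highest values of high fish were on wide-spread arrays. On the 5 wide-spread arrays C078R046 had a median of 1.78, and on the other 16 arrays of high fish 0.63. Without the wide-spread arrays the difference of C078R046 was 0.20 and that of C158R031 0.35.

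On the lower side the same rule gave C030R133 and C124R148. C030R133 ran from -3.25 over -0.77 to 0.27 in high fish and from -1.05 over -0.48 to 0.59 in low fish. Here 17 of 21 high fish lay below the median of the low fish. The difference was -0.63 ± 0.17 (SE; 95% interval -0.97 to -0.28; adjusted p = 0.515 in limma). It was negative in each of the 4 combinations of season and year, but C030R133 too was chosen by its p over the same fish. C124R148 ran from -2.43 over -0.38 to 1.61 in high fish and from -0.81 over 0.38 to 1.08 in low fish, with 16 of 21 high fish below the low median. Its difference was -0.70 ± 0.19 (SE; 95% interval -1.09 to -0.31; adjusted p = 0.515 in limma). For C124R148 the gap lay in the fish of 2009. In summer 2009 the class means were -1.24 ± 0.841 (SD, n = 7) and 0.345 ± 0.303 (SD, n = 7), while in summer 2008 they were 0.545 ± 0.196 (SD, n = 3) and 0.502 ± 0.483 (SD, n = 4). The lowest value, -2.43 in fish 2658 of summer 2009, was not on a wide-spread array. Without the wide-spread arrays the differences of C030R133 and C124R148 were -0.40 and -0.48.

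**Figure D3:**
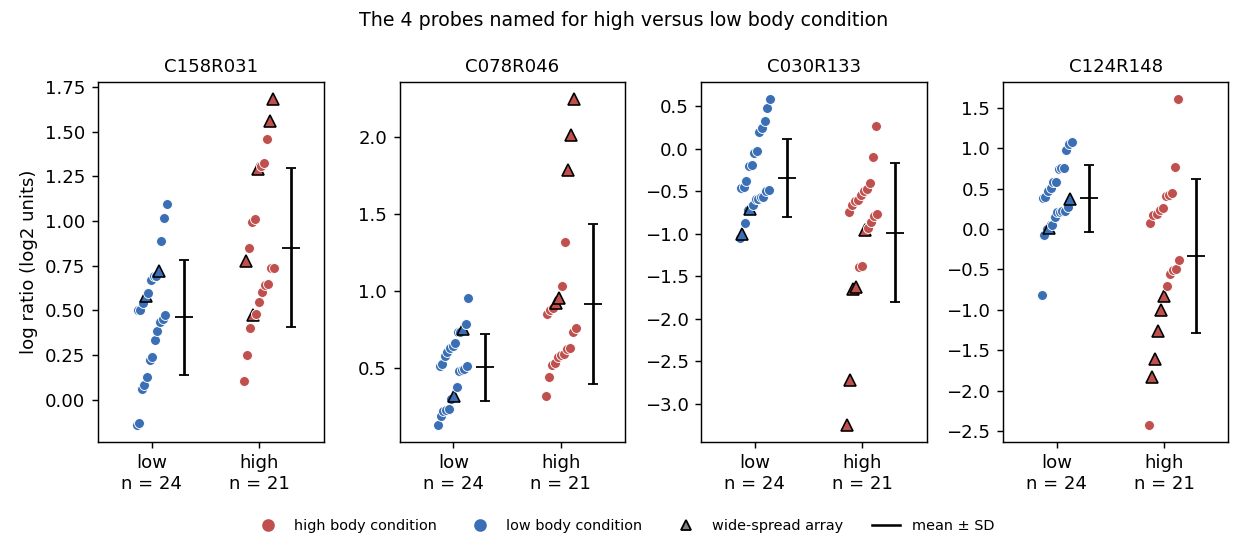
Log ratios (log2 units, vertical axis, a scale for each probe) of the 4 named probes in the 24 low and 21 high fish; triangles are wide-spread arrays, and bars give the mean ± SD of a class. The classes overlap for all 4 probes. The highest values for C078R046, up to 2.25, and the lowest for C030R133, down to -3.25, are on wide-spread arrays of high fish. Not every such array lies so far out, as fish 2857 has 0.92 and -0.96.

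The class differences of the full comparison followed the profile of wide-spread arrays. That profile was taken from river smolts of 2008, which enter no comparison of condition, as the mean of 7 wide-spread minus the mean of 8 other arrays for each probe. Over 16818 probes the class differences correlated with it at r = 0.601 and rho = 0.638, and 74.8% of probes had the same sign. With the wide-spread arrays of the ocean fish left out, r was 0.0292 and rho 0.0194 over 16842 probes, and 50.1% had the same sign. The seasons then had opposite signs, with r = -0.233 in summer fish alone and 0.250 in fall fish alone. With all fish, the relation was seen in the groups of 2009 and not in those of 2008. There r was 0.604 in summer 2009 and 0.477 in fall 2009, but -0.166 in summer 2008 and -0.0670 in fall 2008. Without its wide-spread array, fall 2008 had r = 0.216. Probes are not independent replicates, and these values are descriptions. In the same step the share of probes at an unadjusted p below 0.05 went from 9.09% to 2.19% (525 of 23975 probes, with 0 called in limma). The median size of a difference went from 0.182 to 0.0939. Of the 2127 probes, 2119 were tested in both fits, and 217 had an unadjusted p below 0.05 in both. That was 10.2% of the first list and 41.3% of the second.

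**Figure D4:**
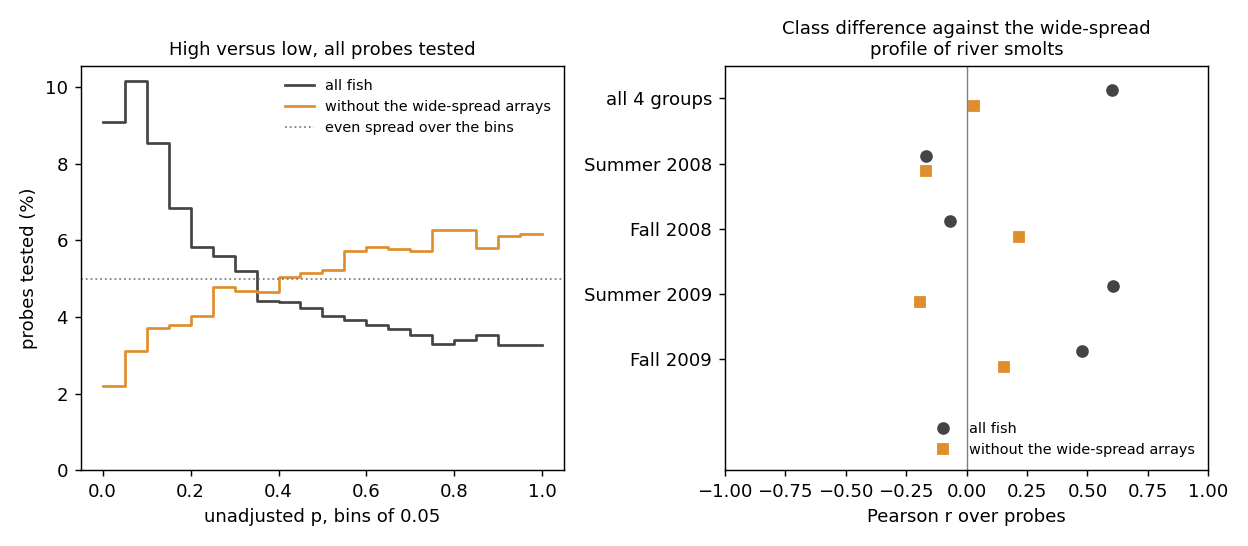
Left, share of probes tested (%, vertical axis) in bins of the unadjusted p (horizontal axis) for high versus low condition; the first bin holds 9.09% of probes with all 45 fish and 2.19% without the wide-spread arrays. Right, Pearson r over probes (horizontal axis) between the class difference and the wide-spread profile of river smolts, in the full comparison and in each season and year; with all fish r is 0.601 in the full comparison, 0.604 in summer 2009 and 0.477 in fall 2009, and without the wide-spread arrays it is 0.0292, -0.193 and 0.153. In summer 2008, with no wide-spread array, r is -0.166, and in fall 2008 it is -0.0670 with all fish and 0.216 without the wide-spread array.

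Condition was next taken as a number, so that differences between fish of the same class counted too. Per 0.1 units of condition, limma gave 0 calls among 23408 probes (0%). There were 1225 (5.23%) at an unadjusted p below 0.05, and the lowest adjusted p was 0.762. C158R031 was again among the 2 smallest p on the positive side, with a slope of 0.21 ± 0.059 (SE) per 0.1 units. The other was C020R098, with 0.25 ± 0.063 (SE). On the negative side C074R021 had -0.34 ± 0.091 (SE) and C180R126 -0.30 ± 0.079 (SE). All 4 had an adjusted p of 0.762 in limma. The slopes of C074R021 and C180R126 were -0.21 and -0.19 without the wide-spread arrays, and then 679 of 23975 probes (2.83%) had an unadjusted p below 0.05. Over probes, the slopes and the wide-spread profile of river smolts had r = 0.551 with all fish and -0.242 without the wide-spread arrays.

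Summer and fall fish were also compared apart, with year as the covariate. In the 21 summer fish the limma fit gave 0 calls among 22140 probes (0%). An unadjusted p below 0.05 was found for 1578 (7.13%). That share was from 3.62% to 4.46% without high fish 2921, 2856 or 2800 or low fish 2656 or 2713, and from 11.0% to 14.9% without high fish 2658, 2786 or 2944 or low fish 2794. C041R137 had a mean of -0.647 ± 0.768 (SD, n = 10) in high and 0.327 ± 0.450 (SD, n = 11) in low fish, and all 10 high fish lay below the low median. The highest high fish had 0.14 and the lowest low fish -0.41, so the classes overlapped. Its difference was -0.93 ± 0.24 (SE) with an adjusted p of 0.560 in limma. C053R155 had -0.431 ± 0.298 (SD, n = 10) and 0.109 ± 0.186 (SD, n = 11), a difference of -0.54 ± 0.14 (SE; adjusted p = 0.560 in limma). On the higher side C144R051 differed by 0.79 ± 0.22 (SE) and C178R081 by 0.79 ± 0.25 (SE), at the same adjusted p. All of these probes were chosen by their p in the same summer fish.

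In the 24 fall fish it gave 0 calls among 23897 probes (0%), and 474 (1.98%) fell below 0.05 before adjustment. That share was 3.78% without low fish 1012, 3.30% without high fish 3329 and 3.03% without low fish 836. The smallest p was that of C227R163, at 0.226 ± 0.40 (SD, n = 11) in high and 0.887 ± 0.28 (SD, n = 13) in low fish. Of the 11 high fish 10 lay below the low median, and the difference was -0.65 ± 0.13 (SE) with an adjusted p of 0.9997 in limma. Leaving out the wide-spread arrays did not move it (-0.65). C056R145 differed by -0.60 ± 0.15 (SE), C140R016 by 0.53 ± 0.14 (SE) and C008R082 by 0.95 ± 0.27 (SE). For all 3 every one of the 11 high fish lay past the low median, but the classes overlapped. These 3 probes, like C227R163, were chosen by their p in the same fish, and their adjusted p was also 0.9997 in limma. Whether the class difference depended on the season was tested by an interaction. In limma it was called for none of 21996 probes (0%), and 690 (3.14%) had p below 0.05 before adjustment. For C041R137 the difference in fall minus that in summer was 0.93 ± 0.27 (SE; adjusted p = 0.974 in limma). It had already been chosen by its p in the summer fish, which are part of this fit. The other probes named here were C023R002, at 0.87 ± 0.23 (SE), C263R031, at -1.56 ± 0.49 (SE), and C146R126, at -1.23 ± 0.40 (SE). They had the same adjusted p and were chosen by their p in the same fish.

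The interaction of condition and year had the largest share of small p-values. limma called 0 of 21888 probes (0%), but 5760 (26.3%) had an unadjusted p below 0.05, and the lowest adjusted p was 0.0972. That lowest value was reached by C104R027, whose class difference was 1.39 ± 0.30 (SE) larger in 2009 than in 2008. The class difference in 2009 minus that in 2008 was 1.10 ± 0.28 (SE) for C090R134, -1.06 ± 0.29 (SE) for C249R055 and -1.28 ± 0.35 (SE) for C051R159, each with an adjusted p of 0.155 in limma. Of the 5 wide-spread arrays of high fish all were of 2009. Without the wide-spread arrays 789 of 22355 probes (3.53%) had an unadjusted p below 0.05 and none was called. The 4 differences were then 0.83, 0.55, -0.47 and -0.72 in the same order.

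Each season and year was then fitted alone, a step added after the data had been seen. In summer 2009 limma gave 0 calls among 21409 probes (0%), and p was below 0.05 before adjustment for 2649 (12.4%). This held for 457 of 23070 probes (1.98%) without the wide-spread arrays, and none was called. With array weights, an alternative described below, 10903 probes were called in summer 2009. In fall 2008 limma gave 0 calls among 24557 probes (0%), with 521 (2.12%) below 0.05. In fall 2009 it gave 0 among 23250 (0%), with 650 (2.80%). The differences of summer 2009 and fall 2009, which share no fish, had r = 0.755 over 20696 probes. Without the wide-spread arrays r was -0.109 over 21212 probes. The other pairs of groups had r between -0.368 and 0.118 with all fish. Of the 20696 probes 2122 (10.3%) differed in the same direction in all 4. Without the wide-spread arrays 1860 of 21212 (8.77%) did. These counts were not tested against the share that signs without a common difference would give.

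Summer 2008 was the only group with calls before any alternative was applied. There limma called 84 of 23790 probes (0.353%), 4 higher and 80 lower in high fish. Before adjustment p was below 0.05 for 1562 (6.57%). None of its 7 arrays was wide-spread. The high fish were 503, 576 and 579, all wild females, and the low fish were 502 and 532, wild males, 572, a hatchery male, and 552, a hatchery fish of sex U. Condition, sex and in part origin therefore cannot be told apart in this group.

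C148R013 had log ratios of -4.16, -6.28 and -4.29 in the high fish and 2.14, 0.47, 0.06 and -0.24 in the low fish. The classes did not overlap, and the difference was -5.52 ± 0.63 (SE; adjusted p = 0.00557 in limma). C101R031 had -4.15, -6.34 and -3.70 in the high fish. In the low fish 502, 532 and 572 it had 2.08, 1.15 and -0.07, and in fish 552 a value close to 0. Its difference was -5.52 ± 0.67 (SE; adjusted p = 0.00864 in limma). The other direction held smaller differences. C129R067 had -1.71, -2.07 and -2.34 in the high and -3.80, -5.03, -4.08 and -4.51 in the low fish, a difference of 2.31 ± 0.33 (SE; adjusted p = 0.0166 in limma). C259R083 had -1.48, -1.62 and -1.83 against -2.96, -3.40, -3.07 and -3.73, a difference of 1.65 ± 0.27 (SE; adjusted p = 0.0326 in limma). In 10 alternatives C148R013 and C101R031 were called each time. C129R067 lost its call in 4 of them (adjusted p up to 0.0993 in limma), namely without fish 503, 572, 576 or 579. C259R083 lost it in 6 (adjusted p up to 0.219 in limma), namely without fish 503, 532, 572, 576 or 579 and with quantile normalization.

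The number of calls in summer 2008 moved with single fish, with 21325 to 23600 probes tested. It was 200 without low fish 502, 104 without low fish 552, 67 without low fish 572 and 37 without low fish 532. It was 41 without high fish 503, 47 without high fish 579 and 25 without high fish 576. Of the 84 probes, 82 were called again without fish 502 and 25 without fish 576. In each of these 7 fits most calls were on the lower side, at the least 33 of 37 without fish 532 and 93 of 104 without fish 552, and 67 of 67 without fish 572.

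The 80 probes called lower in high fish of summer 2008 varied together in the other fish. Their differences ran from -5.52 to -1.63 with a median of -3.29. Over the 38 fish outside summer 2008, the 36 of them with a value in all these fish had a median pairwise r of 0.815. Over all 10233 probes with a value in all these fish it was 0.0523. Those probes were not chosen for a shared direction or a large difference, as the 80 were, so the medians are not like for like. For the 73 of the 80 probes with at least 20 values in these fish the median was 0.776, and single pairs ran from -0.241 to 0.990. Summer and fall fish, whose mean levels differed, were pooled here. The probes were chosen by their values in summer 2008, so their level there is a description. The mean over the probes was -2.91, -3.22 and -3.94 in the high fish and -0.38, -0.20, 0.49 and 0.56 in the low fish. Each mean, here and below, is over those of the 80 probes with a value in that fish. In the fish compared these numbered from 48 in fish 2905 to 80 in fish 661, so fish are not compared on the same probes. Fish 663, with the lowest mean of -4.11, had 53.

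The level of the low fish of summer 2008, from -0.38 to 0.56, was met by no fall fish. In summer 2009 fish 2658, 2675 and 2856 lay within it, at 0.27, -0.05 and -0.17. River smolts, with a median of -0.69, ran from -3.53 to 2.24. In fall 2008 the mean of the 80 probes was -2.82 ± 1.02 (SD, n = 7) in high and -2.99 ± 1.16 (SD, n = 8) in low fish, and 13 of the 15 fish lay between -4.11 and -2.49. The other two were high fish 811, at -0.74, and low fish 661, at -0.42. In fall 2009 it was -3.01 ± 0.648 (SD, n = 4) and -3.15 ± 0.637 (SD, n = 5). The 3 high fish of summer 2008 thus had values within the range of the fall fish. In summer 2009 the fish were spread out, from -3.44 to 0.27 in high and from -2.53 to -0.05 in low fish. There the high fish averaged -0.869 ± 1.22 (SD, n = 7) and the low fish -1.51 ± 0.892 (SD, n = 7), the opposite order to summer 2008. In summer 2008 the females were the 3 high fish and the males were all low fish. A gap between the sexes there was thus fixed by the choice of probes. The 3 females of summer 2008 averaged -3.36 ± 0.5257 (SD, n = 3) and its males 0.223 ± 0.5259 (SD, n = 3). In fall 2008 females averaged -3.31 ± 0.595 (SD, n = 9) and males -2.08 ± 1.39 (SD, n = 5), and fish 661 and 811 were both males. The males 793, 824 and 922 had -2.84, -3.40 and -3.02, within the female range of -4.11 to -2.49. In fall 2009 the means were -3.22 ± 0.578 (SD, n = 2) and -3.05 ± 0.652 (SD, n = 7). In summer 2009 the order of means was the other way, with -0.963 ± 0.778 (SD, n = 8) in females and -1.50 ± 1.41 (SD, n = 6) in males. The part of sex was not tested.

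**Figure D5:**
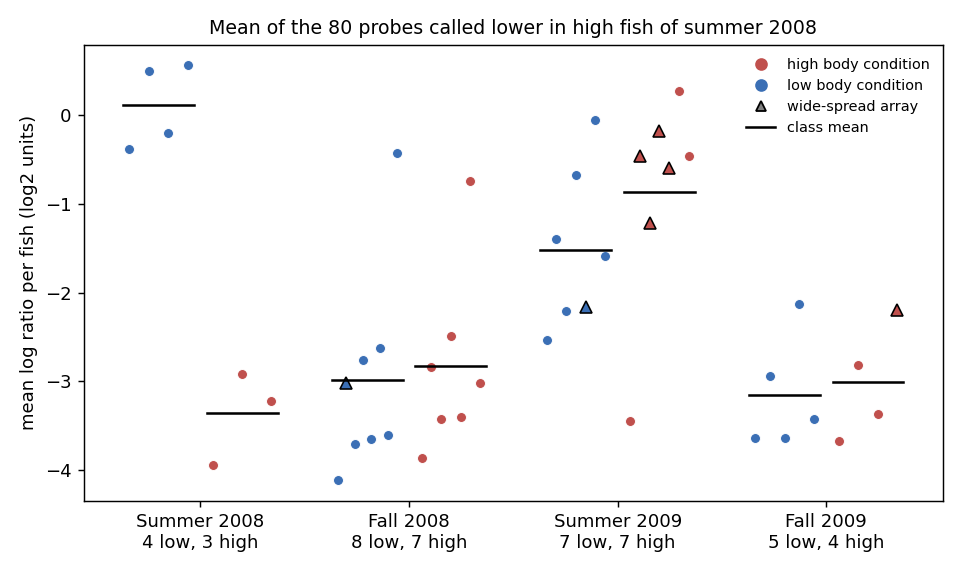
Mean log ratio (log2 units, vertical axis) over the 80 probes called lower in high fish of summer 2008, by fish, season, year and class; triangles are wide-spread arrays and black lines class means. The classes lie apart in summer 2008, from which the probes were chosen, and overlap in the other 3 groups, where fall fish sit mostly between -4.11 and -2.13. Each point is over the probes with a value in that fish, from 48 to 80.

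Fitted in the other groups, more of these probes had the opposite sign to summer 2008 than the same sign. In fall 2009 the share was close to that of all probes. Since these probes varied together, the counts are not independent, and they were not tested. In summer 2009 76 of the 80 were tested and 20 had a lower log ratio in high fish, with a median difference of 0.61. Of all 21409 probes 52.3% were lower there, with a median of -0.04. In fall 2008 23 of 70 were lower (median 0.09, beside 44.2% of all probes), and in fall 2009 33 of 72 (median 0.11, beside 47.1% of all probes). In the full comparison 60 of 75 were lower, with a median of -0.33, but that fit holds the summer 2008 fish themselves.

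Whether a probe had a value at all was compared last, since 44.5% of the possible values were empty. Fisher's exact test, which took no account of season and year, called 0 of 27952 probes (0%). Before adjustment 337 (1.21%) fell below 0.05. Of these, 328 had a value more often in high fish and 9 more often in low fish. Probes are not independent, and the split was not tested. Arrays of high fish also had more values on average, 24521 against 23517, and the split over all probes tested was not counted. In summer fish alone these counts were 259 and 4 (1.07% of the probes tested), and in fall fish alone 46 and 28 (0.351% of the probes tested). C068R070 and C129R003 each had a value in 21 of 21 high and 13 of 24 low fish (Fisher's exact test, p = 0.000281, adjusted p = 1). C107R055 had one in 0 of 21 high and 6 of 24 low fish (Fisher's exact test, p = 0.0232), and C063R132 in 10 of 21 and 19 of 24 (Fisher's exact test, p = 0.0345). Low fish 2794 and 2905 had the fewest values, with 12606 and 13561. Without the wide-spread arrays, fish 2794 among them, 555 of 26083 probes (2.13%) had an unadjusted p below 0.05. A value was more often present in high fish for 547 of these, with fish 2905 still among the low fish.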

How the data were processed

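Gill RNA of each fish was hybridised against a pool of gill RNA, per the labels' protocols. The authors deposited one log ratio per spot, taken here as log2. How spots were scanned and normalized, why values are empty, and what base and direction the ratio has, was not given in the sources used here. The table held 43236 probes and 60 control spots, which stayed out of the tests. In the 45 fish an array gave 12606 to 31972 values with a median between -0.151 and 0.167. Nothing was imputed.

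Tests of log ratios were two-sided moderated tests of limma 3.58.1 (R 4.3.3). Adjustment was by Benjamini-Hochberg over every probe tested, and a call needed an adjusted p below 0.05. Each class had to have values in 50% or more of its fish, and in no fewer than 2. For interactions this held in each season or year. Array and size measures were compared with 100000 permutations within season and year. Named probes were, per comparison, the 2 largest differences on each side among called probes with a value in all fish, or else the 2 smallest p. For summer 2008 the list of 80 probes was chosen after its values were seen. The number of arrays limits the precision. The 45 fish lay on 24 slides, 11 of which held both classes. The fits were tested on simulated data.

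The classes, lists and tests were chosen with earlier results of these data known. The 4 ocean fish without a recorded mass were left out. Alternatives covered centring, quantile normalization, the authors' series table, empty values, variance prior, array weights, wide-spread arrays, slide, position, covariates, classes and subsets. Plots were drawn with matplotlib.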

Additional observations from a re-analysis of the deposited data

Results flagged for a closer look

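Among 7 groups of 4 to 10 fish, each of one class, season and year, 9 measures gave 63 tests of a single far value, and 8 of them found one. Chance marks about 1 in 20 groups. The 8 values belong to 6 fish. Low fish 1012 of fall 2008, the only one of the 45 fish from the capture area WCVI, had a fork length of 32.8 cm against 28.2 cm for the next and a mass of 432 g against 259.4 g. Low fish 2656 of summer 2009 was the smallest of its group, at 13.2 cm against 17.5 cm and 24.4 g against 62.3 g. High fish 2800 of summer 2009 weighed 137.4 g against 86.4 g for the next. The array SD of low fish 2794 of summer 2009 was 1.45, and the next highest of its group was 0.878. High fish 922 of fall 2008 had a score of 25.9 on the first principal component, against -24.0 for the next highest. For C030R133, low fish 3298 of fall 2009 had a log ratio of 0.59 against -0.47 for the next highest of the 5.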

How the results depend on the processing

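The comparison of high with low condition gave 0 calls in all 28 alternatives and without each of the 45 fish in turn. The share of probes at an unadjusted p below 0.05 ran from 0.970% in wild fish only to 26.6% in fish of 2009 only. It was 4.85% without fish 2921 and 14.9% without fish 1012. Classes from residual mass moved 0 fish and so gave the same fit, and the authors' series table held the same values for these fish. Array weights gave 1 call for the season interaction, 151 in summer 2008 and 10903 in summer 2009 (5502 higher and 5401 lower). Without weights 21409 probes were tested in summer 2009, 23790 in summer 2008 and 21996 for the season interaction. Over the 4 alternatives of summer 2009, the share at an unadjusted p below 0.05 ran from 1.98% to 58.2%. For the year interaction, with 21888 probes tested in the main fit, quantile normalization gave 36 calls and origin as a covariate gave 4. In summer 2009 quantile normalization gave 2 calls. The cause of these counts was not tested. In summer 2008 the count ran from 25 to 200 without single fish, with 21325 to 23600 probes tested. The difference on the first principal component was -3.18 without the wide-spread arrays. No named probe turned its sign. C104R027 was called with quantile normalization (1.07, adjusted p = 0.0410 in limma), and C129R067 and C259R083 lost their calls in 4 and 6 of 10 alternatives. No paired analysis was possible because the labels give the fish no shared replicate numbers. Slide, which brings fish of both classes together on 11 slides, was used as a block instead. In single seasons and years, 3 to 8 fish a class limit what can be called.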

Other observations

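The 4 ocean fish of 2009 without a recorded mass could be put in neither class. For the 80 probes followed from summer 2008, summer fish 2728 had a mean log ratio of -0.90, and fall fish 2623, 3232 and 3233 had -2.77, -3.64 and -3.19. Their array SDs were 0.737, 1.21, 0.890 and 1.07 in that order, all below the limit for wide-spread arrays. Outside the ocean summer and fall, the mean of the 80 probes ran from -3.53 to 2.24 in the 27 river smolts, from -2.56 to -0.63 in the 4 spring fish, and was -3.64 and -3.32 in the 2 winter fish.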
